A study of Mus musculus with 37 samples.

Results

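DNA methyltransferases and their recruiting partner Uhrf1 were followed through mouse oocytes, zygotes, early embryos, embryos made by nuclear transfer (NT) and the donor fibroblasts. Members were the 5 genes Dnmt1, Dnmt3a, Dnmt3b, Dnmt3l and Uhrf1, of 12377 genes named on the arrays, and every probe carrying one of these symbols was taken. The first array version had 6 such probes and the second had 7, and on each version 4 probes, of 4 genes, were detected (detection p below 0.05) on 2 or more arrays. Both Dnmt3a probes failed this filter on both versions, as did a further Uhrf1 probe on the second.

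The study put a somatic genome into a dividing embryonic cell and read gene expression during the next cell cycle, and its design text names tail tip fibroblasts as donors and zygotes, blastomeres and oocytes as recipients. On the first version, anaphase NT and prometaphase NT embryos (2 samples each) came from zygotes at those stages of mitosis and interphase tail tip fibroblasts of 129xB6 F1 mice, and were taken 22 to 24 h later where a time is given. Their references were the fibroblasts (3 samples), interphase zygotes (3, of which 1 is labelled as 25 h after hCG), M-phase zygotes (3), embryos kept at the 1-cell stage until 2-cell timing (cleavage-inhibited, 2) and 2-cell controls (2, taken 22 to 24 h after the first mitosis where stated). On the second version, blastomere NT embryos (3 arrays, 14 h after transfer) stood beside 4-cell controls (2, 14 h after a mitotic block was lifted). Oocyte NT embryos (2, made from MII oocytes and interphase tail tip fibroblasts, 2 d after transfer) stood beside MII oocytes (2). Groups of 1 array were a parthenote (2 d after activation), embryos without a genome (1 d, 1 array per version) and embryos made from interphase zygotes and interphase embryonic stem (ES) cells (1 array per version, taken at 1 d where stated). The 2-cell and cleavage-inhibited arrays of the second version were repeat hybridizations of RNA already measured on the first. How many embryos were pooled for an array is not given in the sources used here.

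DNA methylation of CpG sites is copied at replication by Dnmt1, which Uhrf1 brings to newly made DNA by binding hemimethylated sites. Dnmt3a and Dnmt3b set new methylation, and Dnmt3l, which has no activity of its own, assists them in the germ line. Oocytes load the egg with maternal RNA and protein of this system, and the genome of the early mouse embryo loses much of its methylation during the cleavage divisions.

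Uhrf1 passed in more comparisons than any other member, and RefSeq (GRCm38.p6) gives it a pair of start sites, both on the plus strand of chromosome 17. The 250 bases upstream of each are shown, chr17:56303087-56303336 for the outer start and chr17:56304063-56304312 for the inner one, because the probe does not say which start was in use. Capitals mark CCAAT and TTTCGCGC, letters of the boxes bound by NF-Y and by E2F factors.
Uhrf1 outer start: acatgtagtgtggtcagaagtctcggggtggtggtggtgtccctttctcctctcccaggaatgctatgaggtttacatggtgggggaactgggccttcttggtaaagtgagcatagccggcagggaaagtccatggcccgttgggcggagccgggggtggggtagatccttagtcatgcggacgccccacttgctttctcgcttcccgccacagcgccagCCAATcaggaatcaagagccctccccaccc
Uhrf1 inner start: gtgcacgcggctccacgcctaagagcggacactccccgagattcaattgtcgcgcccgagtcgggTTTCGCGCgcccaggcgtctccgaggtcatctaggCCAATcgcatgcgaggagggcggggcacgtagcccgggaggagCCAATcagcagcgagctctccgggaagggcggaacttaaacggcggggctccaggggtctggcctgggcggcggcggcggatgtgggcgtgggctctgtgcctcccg
The outer window held 10 CpG sites and the inner one 30, against a median of 6 over all 32851 windows of this length. CCAAT (or ATTGG on the other strand) stood once in the outer window and 2 times in the inner one, and 33.85% of all windows held it. TTTCGCGC (or GCGCGAAA) stood once in the inner window, as it did upstream of 1 of the 3 starts of Dnmt1, and 0.26% of all windows held it. Those letters were absent from the windows of Dnmt3a (3 starts), Dnmt3b (1) and Dnmt3l (3). All 5 members had windows, 12 in all, and a match is a description of letters, not a binding site.

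Some arrays stood apart from their group. Anaphase NT 15 and 19 correlated at r = 0.819 over the probes kept, with 30.7% and 38.5% of probes detected. Blastomere NT 1 and 3 differed by little more than repeat hybridizations of one RNA and were counted as 1 sample. The fibroblasts had 9 of 9 measured fibroblast markers detected, and also 4 of 4 measured macrophage markers. Interphase zygote 1 correlated at r = 0.9067 and 0.9022 with the other zygotes of its group, which correlated with each other at 0.968.

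Uhrf1 was high in zygotes and lower after the first cleavage, and the transferred embryos split by the stage of their recipient. Its normalized log2 signal was 11.70, 11.34 and 11.20 in interphase zygotes 1, 30 and 31, then 11.36, 11.07 and 11.56 in M-phase zygotes 25, 24 and 26, and 9.05 and 8.75 in 2-cell controls 22 and 23. The zygote groups overlapped and every 2-cell control lay below every zygote. Between M-phase and interphase zygotes the difference was -0.08 ± 0.19 log2 (SE, limma's Benjamini-Hochberg adjusted p = 1, 95% interval -0.50 to 0.34). From M phase to the 2-cell stage Uhrf1 fell by 2.43 ± 0.22 log2, which is 5.4-fold lower (adjusted p = 1.32e-06, n = 2 against 3), and among arrays of slide 3 the difference was -2.22.

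In anaphase NT embryos 15 and 19 the Uhrf1 signal was 10.40 and 10.27, in prometaphase NT embryos 27 and 28 it was 7.95 and 8.35, and fibroblasts 1, 2 and 8 had 7.27, 7.23 and 7.12. Both anaphase NT embryos lay between the zygotes and the 2-cell controls, both prometaphase NT embryos lay below the controls, and fibroblasts were lowest with no overlap among these groups. Anaphase NT embryos exceeded 2-cell controls by 1.43 ± 0.24 log2, or 2.7-fold (adjusted p = 0.000405, n = 2 each). That call was lost with slide as a block (1.14, adjusted p = 0.111) and when the model held just these samples (adjusted p = 0.0729), while on slide 3, where a repeat hybridization of anaphase NT RNA ran beside both controls, the difference was 1.41. Prometaphase NT embryos differed from the same controls by -0.75 ± 0.24 log2, which did not pass (adjusted p = 0.168, 95% interval -1.26 to -0.24).

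Set against each other, anaphase NT embryos had 4.55-fold more Uhrf1 signal than prometaphase NT embryos (log2 2.18 ± 0.24, adjusted p = 1.38e-05, n = 2 each). On slide 3, with the repeat array, the difference was 2.16, and it passed in each of the alternatives with a test. Both kinds of embryo stood above the donor cells, by 3.13 ± 0.22 log2 in anaphase NT (adjusted p = 5.04e-08) and by 0.94 ± 0.22 in prometaphase NT (adjusted p = 0.00271; with series matrix values 0.57, adjusted p = 0.0625). Against M-phase zygotes, their recipient stage, anaphase NT embryos differed by -1 ± 0.22 log2 (adjusted p = 0.00269) and prometaphase NT embryos differed by -3.18 ± 0.22 (adjusted p = 1.18e-07). These comparisons share the zygote, control and fibroblast samples and are not independent of one another.

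Markers of the oocyte, of embryo activation and of the donor cells differed beside Uhrf1. Over the 9 measured of 12 listed oocyte genes, all detected in each of these embryo groups, the summed normalized signal was 26400 to 27300 in anaphase NT and 7170 to 9110 in prometaphase NT embryos, against 8740 to 10600 in 2-cell controls and 40700 to 41900 in M-phase zygotes. The sum of 7 embryo activation genes was 2650 to 4520 in anaphase NT and 11400 to 11600 in prometaphase NT embryos, against 12600 to 14100 in 2-cell controls and 227 to 330 in M-phase zygotes. In anaphase NT against 2-cell controls 6 of these 7 were lower and 1 higher. The sum of 9 measured fibroblast genes was 4810 to 8250 in anaphase NT embryos (8 detected) and 775 to 807 in prometaphase NT embryos (7 detected), against 204 to 268 in 2-cell controls (3 detected) and 34300 to 36200 in fibroblasts. In M-phase zygotes it was 187 to 794 (4 detected), a range that overlapped prometaphase NT embryos. Without a fibroblast donor, it was 3840 in the genome-less embryo (2 detected) and 3690 in the ES interphase NT embryo (3 detected). The part of these lists in the Uhrf1 result was not tested. In whole-embryo RNA, fewer cells of a type and less RNA per cell cannot be told apart.

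**Figure D1:**
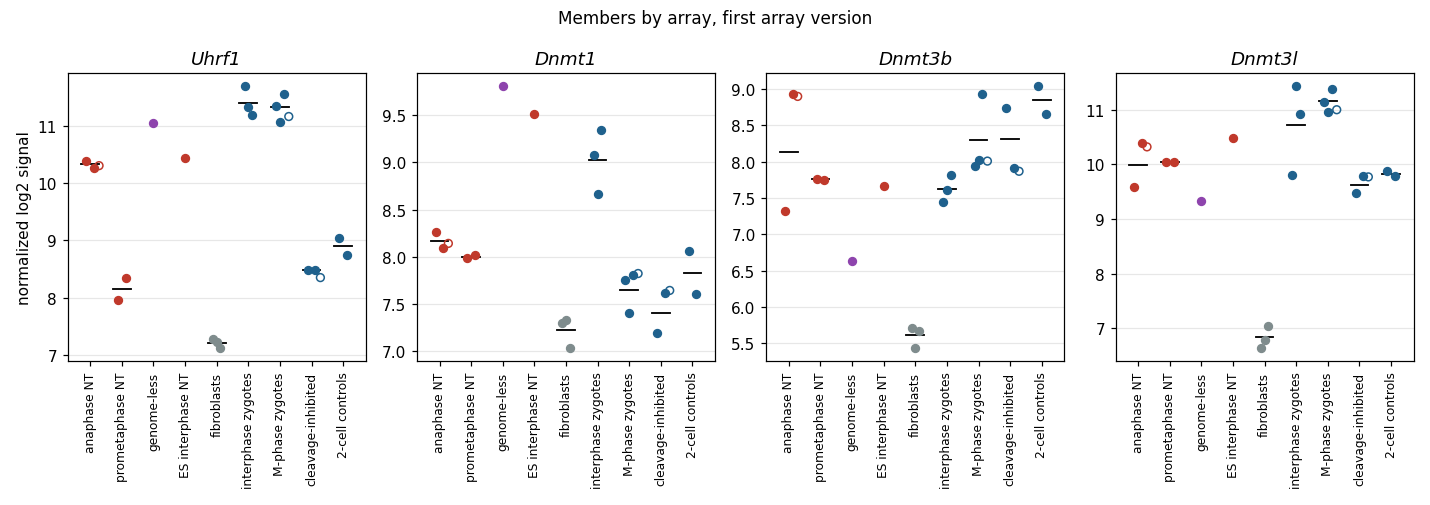
Normalized log2 signal of the 4 detected members on each array of the first version, by group; filled points are samples, open points repeat hybridizations of RNA already shown, and lines are means of groups with more than 1 sample. Uhrf1 lies at 10.27 and 10.40 in anaphase NT embryos and at 7.95 and 8.35 in prometaphase NT embryos, on either side of the 2-cell controls.

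Embryos without a genome and ES interphase NT embryos had high Uhrf1 values. On the first version the embryo without a genome gave 11.06 and the ES interphase NT embryo 10.45, both above the 2-cell controls. Before normalization their average bead intensities for Uhrf1 were 215 and 141, below those of 2-cell controls 22 and 23 (469 and 291). On the second version the corresponding values were 13.52 and 13.84, against 11.34 and 11.08 in the 2-cell controls of that version. With 1 array each these have no replicate check, and on the first version these arrays detected 18.8% and 20.8% of probes, the lowest detection rate there being 18.8% and the highest 45.7%. The embryo activation sum on them was 468 and 250.

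MII oocytes had the highest Uhrf1 signal of the second version. It was 11.60, 12.44 and 11.59 in blastomere NT arrays 1, 2 and 3, then 11.78 and 11.84 in oocyte NT embryos, 11.23 in the parthenote, 15.01 and 14.49 in MII oocytes, and 10.75 and 10.95 in 4-cell controls. All NT arrays lay above both 4-cell controls and below both oocytes, and blastomere and oocyte NT embryos overlapped. Oocyte NT embryos stood 7.69-fold below MII oocytes (log2 -2.94 ± 0.33, adjusted p = 3.32e-05, n = 2 each) and 4-cell controls 14.9-fold below them (log2 -3.90 ± 0.33, adjusted p = 3.68e-06). Neither oocyte NT embryos (log2 0.96 ± 0.33, adjusted p = 0.0948) nor blastomere NT embryos (log2 1.17 ± 0.33, adjusted p = 0.123) passed against 4-cell controls, with 95% intervals of 0.22 to 1.69 and 0.43 to 1.90 and within-slide differences of 1.06 (slide 6) and 0.92 (slide 7). Blastomere NT arrays 1 and 3 counted as 1 sample (n = 2). Leaving out 1 sample at a time gave blastomere NT differences from 0.74 to 1.59. The highest was without that sample, where blastomere NT 2 alone stood for its group.

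On the second version the sum of 9 measured oocyte markers was 20700 to 34600 in blastomere NT and 44900 to 67900 in oocyte NT embryos, against 15600 to 20500 in 4-cell controls and 190000 to 202000 in MII oocytes. The 2-cell controls of this version had sums of 63200 to 73800 and mean Uhrf1 of 11.21, against a mean Uhrf1 of 12.02 in blastomere NT embryos. The sum of 3 measured macrophage markers was 4720 to 15500 in blastomere NT embryos (3 detected), against 157 to 219 in 4-cell controls (1 detected). It was 1440 to 1580 in oocyte NT embryos (2 detected) and 1490 to 2510 in MII oocytes (1 detected). The genome-less and ES interphase NT embryos had 1570 and 2530 (1 detected in each). In the fibroblasts of the first version 4 such genes were detected. The part of either list in the Uhrf1 values was not tested.

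**Figure D2:**
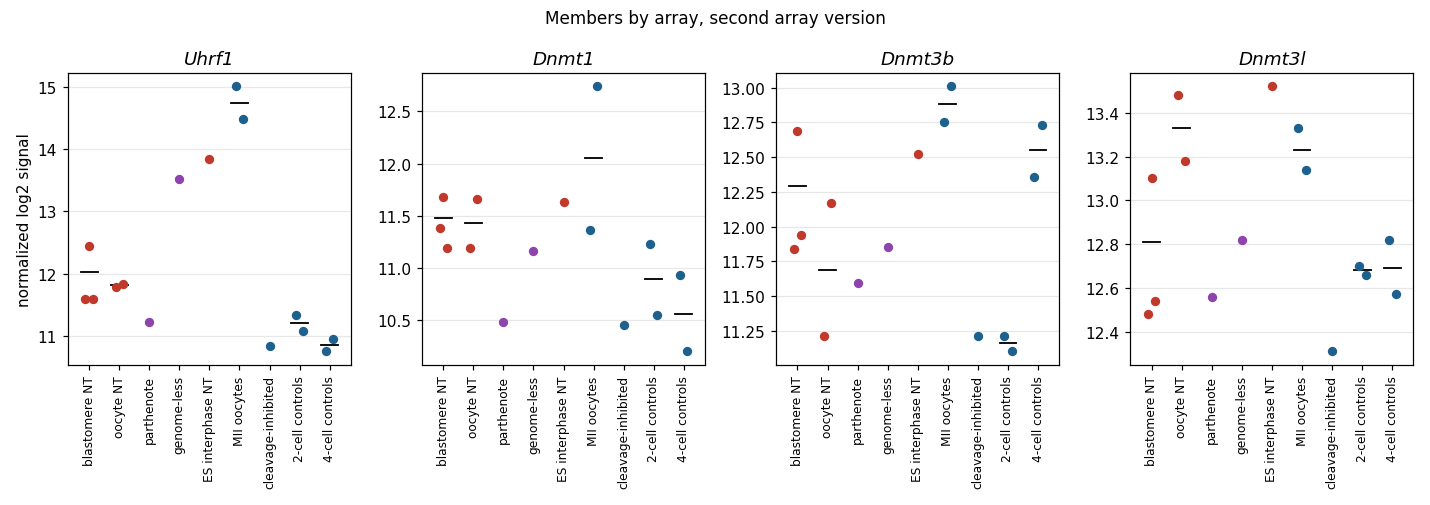
Normalized log2 signal of the 4 detected members on each array of the second version, by group; points are arrays, and lines are means of groups with more than 1 array, blastomere NT arrays 1 and 3 counting as 1 sample. Uhrf1 is at 14.49 and 15.01 in MII oocytes and between 10.75 and 12.44 in blastomere NT and oocyte NT embryos, the parthenote and the 2-cell and 4-cell controls.

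The genes most like Uhrf1 over the 19 samples of the first version, among 8243 others, were Oog4 (r = 0.984), the oocyte growth factor gene Bmp15 (r = 0.983) and Calr4 (r = 0.981). Over the 14 samples of the second version their r was 0.745, 0.775 and 0.627. The points share arrays and normalization, and the groups lie in separate clusters.

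Dnmt1, the maintenance enzyme, differed between the zygote stages. It was 7.75, 7.40 and 7.80 in M-phase zygotes 25, 24 and 26, against 9.08, 8.66 and 9.35 in interphase zygotes 1, 30 and 31. Every M-phase value lay below every interphase value, a difference of -1.38 ± 0.24 log2 or 2.61-fold (adjusted p = 0.00638, n = 3 each). On slide 4, with 1 M-phase and 2 interphase arrays, it was -1.21. The call was lost with slide as a block (-1.17, adjusted p = 0.266) and with these groups alone (adjusted p = 0.0992).

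Between M-phase zygotes and the next stage Dnmt1 moved little, while interphase zygotes (mean 9.03) lay above both. The 2-cell controls had 8.06 and 7.60, overlapping the M-phase zygotes (log2 0.19 ± 0.27, adjusted p = 0.662). Anaphase NT embryos had 8.26 and 8.09 and prometaphase NT embryos 7.98 and 8.02, which differed from the controls by 0.34 ± 0.29 and 0.16 ± 0.29 log2 (adjusted p = 0.419 and 1). Fibroblasts, with 7.29, 7.33 and 7.03, lay below all of these. Against 2-cell controls they differed by -0.62 ± 0.27 log2, which did not pass (adjusted p = 0.0748). Apart from leaving samples out, 10 alternatives gave -1.13 to -0.03 there, and 1 of them passed. Anaphase NT embryos exceeded fibroblasts by 0.96 ± 0.27 log2 (adjusted p = 0.00865) and prometaphase NT embryos did so by 0.78 ± 0.27 (adjusted p = 0.0283). Both of these NT calls were lost with series matrix values (0.48 and 0.39, adjusted p = 0.203 and 0.341) and with slide as a block (1.13 and 1.3, adjusted p = 0.183 and 0.137). The anaphase call was also lost with 75th percentile scaling (0.61, adjusted p = 0.145). The prometaphase call was lost without fibroblast 1 (0.81, adjusted p = 0.0513), fibroblast 8 (0.69, 0.0868), prometaphase NT 27 (0.8, 0.0997) or prometaphase NT 28 (0.76, 0.121).

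The embryo without a genome (9.81) and the ES interphase NT embryo (9.51) had the highest normalized Dnmt1 values of the first version. Before normalization their average bead intensities for Dnmt1, 72.9 and 69.9, were the lowest of that version. These arrays detected 18.8% and 20.8% of probes. On the second version the corresponding normalized values were 11.16 and 11.63. The second version was led by MII oocytes, with 11.36 and 12.74, a wide pair. Dnmt1 was 11.38, 11.68 and 11.19 in blastomere NT arrays and 11.19 and 11.66 in oocyte NT embryos, above the 4-cell controls (10.93 and 10.20) without passing (adjusted p = 0.466 and 0.301). Oocyte NT embryos overlapped MII oocytes (log2 -0.62 ± 0.48, adjusted p = 0.316). Leaving out 1 sample at a time gave differences from -1.31, without MII oocyte 1, to 0.07. The 4-cell controls were 2.8-fold below MII oocytes (log2 -1.48 ± 0.48, adjusted p = 0.0237; on slide 6, -1.12). That call was lost with series matrix values (-1.27, adjusted p = 0.117), with slide as a block (-1.12, adjusted p = 0.179) and with these groups alone (adjusted p = 0.0555). It was also lost without MII oocyte 2 (-0.79) or 4-cell control 2 (-1.12).

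Dnmt3b, a de novo enzyme, separated embryos from fibroblasts. It was 5.72, 5.44 and 5.67 in fibroblasts 1, 2 and 8, against 9.04 and 8.66 in 2-cell controls, and no other group of the first version reached as low. Fibroblasts were 9.44-fold lower (log2 -3.24 ± 0.43, adjusted p = 2.85e-05). Anaphase NT embryos 15 and 19 had 7.33 and 8.94 and prometaphase NT embryos 7.77 and 7.75, which put them 2.52 ± 0.43 and 2.15 ± 0.43 log2 above the donors (adjusted p = 0.00029 and 0.00102).

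Against 2-cell controls the Dnmt3b differences of the NT embryos did not pass: -0.72 ± 0.48 log2 in anaphase NT (adjusted p = 0.28) and -1.09 ± 0.48 in prometaphase NT (adjusted p = 0.396, both samples below both controls). The anaphase value rested on an unlike pair, and without anaphase NT 19 it was -1.52 (adjusted p = 0.0132), whereas on slide 3, where the repeat array alone stood for that group, it was 0.05. Between anaphase and prometaphase NT embryos Dnmt3b differed by 0.37 ± 0.48 log2 (adjusted p = 0.596; on slide 3, 1.14). M-phase zygotes (7.94, 8.03 and 8.94) and interphase zygotes (7.45, 7.61 and 7.82) did not overlap, yet their difference of 0.68 ± 0.39 did not pass either (adjusted p = 0.491; on slide 4, 1.23).

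Second-version Dnmt3b signals were 11.84, 12.69 and 11.94 in blastomere NT arrays, 11.21 and 12.17 in oocyte NT embryos, 12.75 and 13.01 in MII oocytes, 11.21 and 11.10 in 2-cell controls and 12.36 and 12.73 in 4-cell controls. Oocyte NT embryos were 2.27-fold below MII oocytes (log2 -1.18 ± 0.38, adjusted p = 0.0231). This call was lost with these groups alone (adjusted p = 0.0532) and without oocyte NT 1 (-0.70) or MII oocyte 2 (-1.06). The 4-cell controls were 2.62-fold above the 2-cell controls (log2 1.39 ± 0.38, adjusted p = 0.0281), a call lost when any one of the 4 samples was left out (adjusted p 0.0788 to 0.194). The 4-cell controls lay on slides 6 and 7 and the 2-cell controls on slide 8, so slide and stage cannot be told apart.

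Dnmt3a, the other de novo enzyme, gave no usable level. Its 2 probes were detected on 1 and 0 of 22 arrays of the first version, with lowest detection p of 0.017 and 0.234, and on 0 of 15 arrays each of the second, with lowest detection p of 0.426 and 0.578. These levels give only a bound and support no comparison.

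Dnmt3l, the cofactor, was brighter after normalization in every embryo of the first version than in donor cells. It was 6.64, 6.79 and 7.04 in fibroblasts, 9.58 and 10.39 in anaphase NT embryos, 10.04 and 10.04 in prometaphase NT embryos, and 9.87 and 9.78 in 2-cell controls. The genome-less and ES interphase NT embryos had 9.32 and 10.48. Before normalization their average bead intensities were 52 and 144, below those of the fibroblasts (290, 320 and 195). Fibroblasts stood 8.01-fold below 2-cell controls (log2 -3.00 ± 0.38, adjusted p = 1.63e-05). NT embryos exceeded fibroblasts by 3.16 ± 0.38 log2 when made at anaphase (adjusted p = 1.11e-05) and by 3.21 ± 0.38 when made at prometaphase (adjusted p = 8.99e-06), and lay within 0.21 log2 of the 2-cell controls (SE 0.41, adjusted p = 0.86 and 1).

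M-phase zygotes held more Dnmt3l than embryos a cycle later, at 11.14, 10.95 and 11.38, above every 2-cell control and every NT embryo of this version. Interphase zygotes 1, 30 and 31 had 9.80, 11.43 and 10.92, a range that overlapped those embryos. The fall to the 2-cell stage was -1.33 ± 0.38 log2 (adjusted p = 0.0119), against -1.17 ± 0.38 in anaphase NT (adjusted p = 0.0269) and -1.12 ± 0.38 in prometaphase NT embryos (adjusted p = 0.0283). All 3 calls were lost with slide as a block (adjusted p = 0.0873, 0.0924 and 0.155), while the differences on slide 3 were -1.15, -0.66 and -0.94. The 2-cell call was also lost without 2-cell control 22 (-1.38, adjusted p = 0.0524) or 23 (-1.29, 0.0691). The anaphase call was lost without anaphase NT 15 (-0.77, adjusted p = 0.224), M-phase zygote 25 (-1.18, 0.0608) or M-phase zygote 26 (-1.06, 0.0725). The prometaphase call was lost with 75th percentile scaling (-0.75, adjusted p = 0.121) and without M-phase zygote 25 (-1.13, 0.0609) or 26 (-1.01, 0.0819) or prometaphase NT 27 (-1.12, 0.113) or 28 (-1.12, 0.111).

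Among second-version arrays Dnmt3l spanned 12.31 to 13.52. It passed in none of the 6 comparisons there, and its unadjusted p was below 0.05 in oocyte NT embryos against 4-cell controls alone (log2 0.64 ± 0.27, adjusted p = 0.159). It was 12.48, 13.10 and 12.54 in blastomere NT arrays and 13.48 and 13.18 in oocyte NT embryos, against 13.33 and 13.14 in MII oocytes and 12.82 and 12.57 in 4-cell controls. Oocyte NT embryos and oocytes overlapped (log2 0.10 ± 0.27, adjusted p = 0.791), but after scaling to the 75th percentile the difference was -1.24 (adjusted p = 0.00165). That scaling moved the median of all probes in this comparison by -0.66. The 4-cell controls differed from MII oocytes by -0.54 ± 0.27 log2 (adjusted p = 0.113). After the same scaling this was -1.41 (adjusted p = 0.000613), with the median of all probes moved by -0.57.

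Ordered by group mean, Uhrf1 ran on the first version from interphase zygotes (11.41), M-phase zygotes (11.33), the genome-less embryo, the ES interphase NT embryo, anaphase NT embryos (10.34), 2-cell controls (8.90), cleavage-inhibited embryos (8.49) and prometaphase NT embryos (8.15) to fibroblasts (7.21). Only the zygote groups, neighbours in that order, overlapped in range. For Dnmt1, prometaphase NT, 2-cell, M-phase, cleavage-inhibited and fibroblast samples each overlapped the next, and for Dnmt3b the same held from 2-cell controls through cleavage-inhibited, M-phase and anaphase NT to prometaphase NT embryos. Cleavage-inhibited embryos, in which 2-cell timing was reached without division, had 8.49 and 8.48 for Uhrf1 and differed from 2-cell controls by -0.41 ± 0.24 log2 (adjusted p = 0.954).

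By count, 1 of the 4 members passed in anaphase NT against 2-cell controls, as higher, where 32.0% of all 15537 probes passed and 15.1% as higher. In prometaphase NT against the same controls 0 of 4 passed, where 2.22% of probes did (1767 probes at an unadjusted p below 0.05, Dnmt3b and Uhrf1 among them). Anaphase against prometaphase NT embryos gave 1 of 4, as higher, beside 36.1% of all probes and 17.0% as higher. All 4 members were higher than in fibroblasts in both kinds of embryo, beside 50.7% of probes passing in anaphase NT (24.3% as higher) and 43.2% in prometaphase NT (20.8% as higher). Relative to M-phase zygotes 2 of 4 were lower in anaphase NT embryos (37.3% of probes passed, 19.5% as lower), in prometaphase NT embryos (42.0%, 20.8% as lower) and in 2-cell controls (39.9%, 20.6% as lower).

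In fibroblasts against 2-cell controls 3 of 4 members were lower, beside 45.9% of probes passing and 22.3% as lower. M-phase against interphase zygotes gave 1 of 4, Dnmt1, beside 3.42% of probes and 1.49% as lower (532 probes, and 1240 without interphase zygote 1). Cleavage-inhibited embryos gave 0 of 4, beside 0.322% (50 probes, and 234 without cleavage-inhibited embryo 20; 996 at an unadjusted p below 0.05, none of them a member). Of 14760 second-version probes, 50.3% passed in oocyte NT embryos against MII oocytes (25.2% as lower) and 51.1% in 4-cell controls against MII oocytes (24.9% as lower), and 2 of 4 members were lower in each. None of the 4 passed against 4-cell controls in blastomere NT (2.25% of probes, 1985 at an unadjusted p below 0.05) or in oocyte NT embryos (10.3%, 3784), nor between these NT types (8.35%, 3444). The 4-cell against 2-cell controls gave 1 of 4, Dnmt3b, as higher, beside 19.6% of probes and 10.1% as higher. With 4 probes, these counts show nothing particular to the members.

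**Figure D3:**
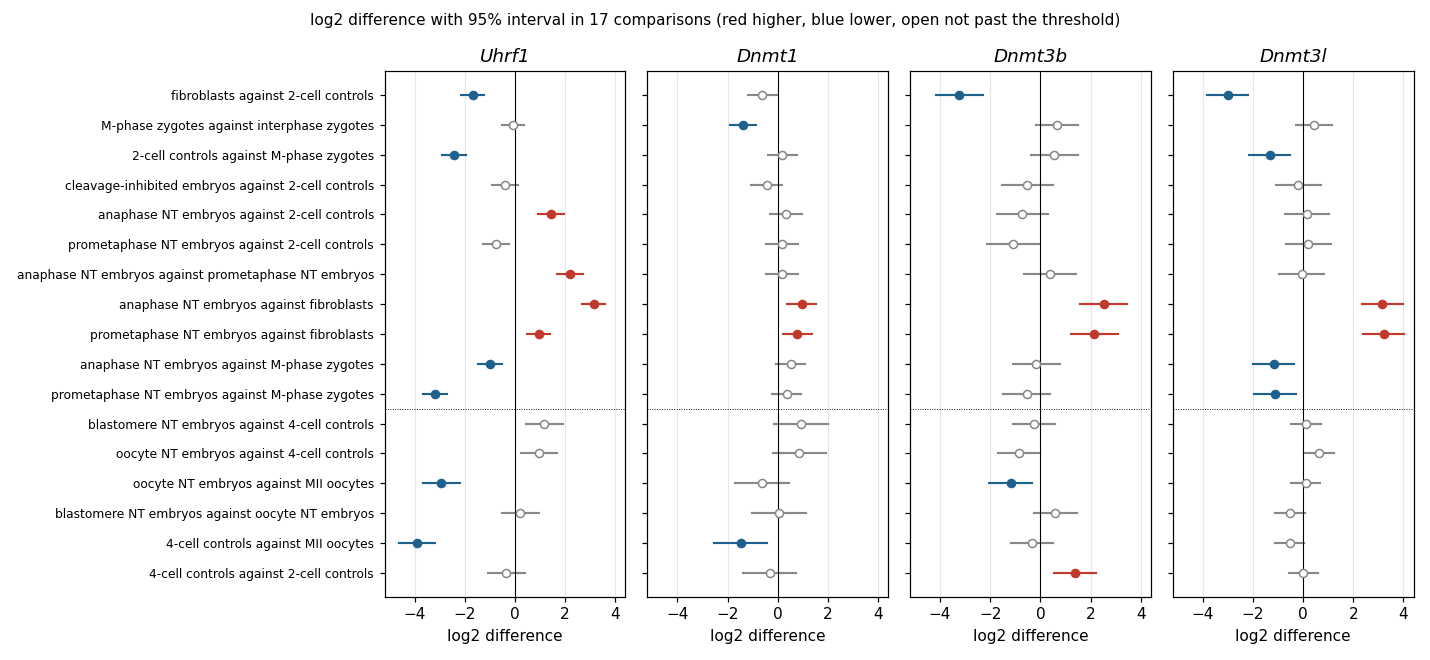
Log2 difference of each detected member, with its 95% interval, in the 11 comparisons of the first version (above the dotted line) and the 6 of the second; filled red and blue points passed as higher and lower, open points did not pass. Uhrf1 differs by 2.18 between anaphase and prometaphase NT embryos, where Dnmt1, Dnmt3b and Dnmt3l lie at 0.18, 0.37 and -0.05.

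Other genes of DNA methylation were read from 7 lists, with the brightest probe for each gene. Prometaphase NT embryos differed from 2-cell controls in none of them: 0 of 9 demethylation genes, 0 of 4 methyl-CpG readers, 0 of 10 maintenance and replication partners, 0 of 11 regulators of histone marks, 0 of 8 imprint and maternal protection genes and 0 of 4 methyl donor genes passed, where 2.22% of all probes did. List medians there lay between -0.18 and 0.33 log2, beside -0.01 over all probes. In anaphase NT embryos maintenance and replication partners split into 1 higher and 4 lower of 10 (median -0.82, beside 0.04 over all probes), in a comparison where 32.0% of all probes passed, 15.1% as higher. E2f1, the transcription factor that drives S-phase genes, was 12.16 in anaphase NT embryos, against 9.99 in 2-cell controls (log2 2.17 ± 0.39, adjusted p = 0.000776). Dmap1, a Dnmt1-binding protein, was not detected in anaphase NT embryos and at least 11.7-fold lower there (adjusted p = 3.28e-07), with its signal in 2-cell controls set against the lowest signal called detected. The deacetylase gene Hdac1 was lower as well (log2 -2.79 ± 0.60, adjusted p = 0.0028).

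Imprint and maternal protection genes in anaphase NT embryos were 5 higher and 2 lower of 8, with a median of 1.14 log2, beside the same 32.0% of all probes passing. Nlrp5, a subunit of the maternal complex under the oocyte membrane, was higher (log2 2.55 ± 0.26, adjusted p = 8.07e-06), as was its partner Ooep (log2 1.5 ± 0.37, adjusted p = 0.00693), while Khdc3 of the same complex was lower (log2 -2.02 ± 0.43, adjusted p = 0.00243). Regulators of histone marks were 0 higher and 5 lower of 11, among them Trim28, the corepressor that guards imprints (log2 -1.77 ± 0.34, adjusted p = 0.00125), and Ezh2, the Polycomb methyltransferase (log2 -1.74 ± 0.56, adjusted p = 0.0284). Of 9 demethylation genes 1 was higher and 2 lower: Gadd45g, a stress-response gene linked to DNA repair, stood at least 5.76-fold above the controls, in which it was not detected (adjusted p = 1.81e-05). Ung, a uracil glycosylase gene, was lower (log2 -1.65 ± 0.36, adjusted p = 0.003). Methyl-CpG readers had 0 of 4 past the threshold and methyl donor genes 1 of 4, Shmt2 (log2 2.13 ± 0.66, adjusted p = 0.0244).

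From M-phase zygotes to 2-cell controls the same lists moved in both directions, beside 39.9% of all probes passing. Demethylation genes were 2 higher and 2 lower of 9, and Tet3, the oxidase of the paternal zygotic genome, was at least 4.99-fold lower in 2-cell controls (adjusted p = 0.000194). Maintenance and replication partners were 4 higher and 1 lower of 10: Hdac1 rose (log2 2.67 ± 0.55, adjusted p = 0.00142), as did Cdca7, a partner of the remodeller Hells (log2 2.52 ± 0.44, adjusted p = 0.000402), and the chromatin assembly gene Chaf1a fell (log2 -1.42 ± 0.40, adjusted p = 0.0113). Imprint and maternal protection genes were 1 higher and 4 lower of 8, including the imprint guard Zfp57 (log2 -5.29 ± 0.35, adjusted p = 1.07e-07). Regulators of histone marks were 2 higher and 4 lower of 11, methyl donor genes 1 higher and 2 lower of 4, and 1 of 4 readers, Zbtb33, was at least 5.07-fold lower (adjusted p = 1.94e-07).

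In fibroblasts against 2-cell controls, maintenance and replication partners were 1 higher and 7 lower of 10 (median -1.74, beside -0.07 over all probes), where 45.9% of all probes passed, 22.3% as lower. The 1 higher gene was Uhrf2, the paralogue of Uhrf1, at 10.23 in fibroblasts and 6.05 in 2-cell controls (log2 4.18 ± 0.94, adjusted p = 0.00212). Lower ones included Cdca7 (log2 -3.98 ± 0.44, adjusted p = 4.78e-06) and the deubiquitinase gene Usp7 (log2 -3.04 ± 0.30, adjusted p = 1.37e-06). Imprint and maternal protection genes were 0 higher and 6 lower of 8, and Dppa3, which shields the maternal genome from demethylation, was at least 85.8-fold lower (adjusted p = 8.12e-11).

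Within the second version E2f1 set the NT types apart. It was 14.14 in oocyte NT embryos, against 11.94 in 4-cell controls (log2 2.20 ± 0.31, adjusted p = 0.00286), and 11.19 in blastomere NT embryos, against 14.14 in oocyte NT embryos (log2 -2.95 ± 0.31, adjusted p = 0.0008). In oocyte NT embryos against MII oocytes 6 of 10 maintenance and replication partners were higher and 1 lower (median 1.86, beside -0.07 over all probes), where 50.3% of all probes passed. Hdac1 was 11.61 in oocyte NT embryos, against 6.37 in MII oocytes (log2 5.24 ± 0.48, adjusted p = 8.24e-06), and Pcna, the replication clamp, was the lower gene (log2 -2.20 ± 0.49, adjusted p = 0.00328). In blastomere NT embryos against 4-cell controls 0 genes of these lists passed.

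For the remaining members, over the first version's 19 samples the closest genes were Mapkap1 (r = 0.972), Gorasp2 (0.959) and Tcl1 (0.953) for Dnmt3l, Dppa3 (0.906), Dusp14 (0.882) and Tex19.1 (0.878) for Dnmt3b, and Tm9sf2 (0.863), Reg3a (0.862) and Hmx1 (0.859) for Dnmt1. On the second version r was 0.641 for Mapkap1, 0.234 for Gorasp2 and 0.255 for Tcl1. It was -0.146 for Dppa3, -0.103 for Dusp14, 0.645 for Tex19.1 and 0.443 for Tm9sf2, with no value for Reg3a and Hmx1. The first version's samples include the genome-less and ES interphase NT arrays, with the highest normalized and lowest bead Dnmt1 signals of that version. These r values describe the samples and carry no test.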

How the data were processed

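Per the labels' protocols, PicoPure-extracted RNA was amplified with Illumina TotalPrep reagents and read on single-colour bead arrays (22 of one version, 15 of another, on 8 slides). The deposited tables hold an average bead intensity and a detection p-value for each probe and array, per the file headers; the submitters' processing notes name GenomeStudio, without a version. The deposited series matrix holds intensities whose scaling the sources used here do not state.

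Each version was normalized separately by the neqc function (limma 3.58.1, run under R 4.3.3), which corrects background by normexp, adds an offset of 16, equalizes quantiles and takes log2. Probes detected on 2 or more arrays (15537 and 14760) entered a group-means model of 19 and 14 samples with moderated variances, with 10 and 5 residual degrees of freedom, and a probe passed where limma's two-sided p, adjusted by Benjamini and Hochberg, was below 0.05. There were 17 comparisons. Adjusted p-values cover all probes kept. The model was tested on simulated data. Platform symbols were updated through gene identifiers in RefSeq (14890 and 15043 probes matched).

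Groups followed the labels, which call many samples biological duplicates without naming animals or litters; the p-values therefore reflect differences among these arrays only, which can be technical. Repeat hybridizations stayed out of the fit. Blastomere NT arrays 1 and 3 were counted as 1 sample: over probes detected on all arrays their log2 difference had an SD of 0.166, against 0.133 to 0.160 in repeat hybridizations and 0.699 between blastomere NT 1 and 2. The 4-cell control 2 is labelled with a pair of slides, and that of its description was used. The replicates limit the precision of every value. Members and lists were chosen with earlier results of these data known. List genes were named, up to 3 per list and comparison, by largest difference among those that passed without overlap and were detected throughout the higher group; some were left out for length.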

Additional observations from a re-analysis of the deposited data

Results flagged for a closer look

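Uhrf1 differed between the kinds of transferred embryo: its difference from the same 2-cell controls was 2.18 log2 larger in anaphase NT than in prometaphase NT embryos, and this difference was itself tested (limma, adjusted p = 1.38e-05, n = 2 each). Against those controls the anaphase NT call was lost with slide as a block (limma, adjusted p = 0.111) and with only the compared groups (adjusted p = 0.0729). The prometaphase NT difference did not pass (adjusted p = 0.168). Anaphase NT samples lay on slide 2 and prometaphase NT samples on slide 3. The cause was not tested.

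Arrays of single samples, which entered no comparison, also gave member values above every 2-cell control of their array version. On the first version Dnmt1 was 9.81 in the genome-less embryo and 9.51 in the ES interphase NT embryo, against at most 8.06 in 2-cell controls. Before normalization these arrays had the lowest average bead intensities for Dnmt1 of that version (72.9 and 69.9), with 18.8% and 20.8% of probes detected. Uhrf1 was 11.06 and 10.45 in the same arrays, against at most 9.05, and Dnmt3l was 10.48 in the ES interphase NT embryo, against at most 9.87. Bead intensities before normalization went the other way. For Uhrf1 they were 215 and 141, against 469 and 291 in 2-cell controls. For Dnmt3l in the ES interphase NT embryo the intensity was 144, against 887 and 645. On the second version Uhrf1 was 13.52 in the genome-less and 13.84 in the ES interphase NT embryo, against at most 11.34 in 2-cell controls. Dnmt3b was 11.59 in the parthenote, 11.85 in the genome-less and 12.52 in the ES interphase NT embryo, against at most 11.21. Dnmt3l was 12.82 in the genome-less and 13.52 in the ES interphase NT embryo, against at most 12.70, and Dnmt1 was 11.63 in the ES interphase NT embryo, against at most 11.23. Other values of these arrays did not exceed the controls. On the first version Dnmt3b was 6.64 in the genome-less and 7.67 in the ES interphase NT embryo, below both 2-cell controls (9.04 and 8.66). Dnmt3l was 9.32 in that genome-less embryo, below 9.87 and 9.78. Second-version Dnmt1 was 11.16 in the genome-less embryo. Dnmt1, Dnmt3l and Uhrf1 in the parthenote, and all members in the cleavage-inhibited array, did not exceed the highest control. All these values have no replicate, and their causes were not tested.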

How the results depend on the processing

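No paired analysis was possible because the groups compared share fewer than 2 replicate numbers given by the labels. Of 952 member values under alternatives, 39 lost a call, 7 gained one, 6 within-slide values moved by more than the spread between replicates and 1 reversed, Dnmt3l in oocyte NT against MII oocytes (-1.24 after 75th percentile scaling). The other 899 kept their call, or, for within-slide values, which have no test, moved by less; among them 35 differences called in neither setting changed sign. Members called in M-phase against interphase zygotes went down to 0 with slide as a block and with only the compared groups, against 1 in the report, and so did those in anaphase NT against 2-cell controls. Slide as a block left 1 in 2-cell, anaphase NT and prometaphase NT embryos against M-phase zygotes and in 4-cell controls against MII oocytes, in place of 2. With 75th percentile scaling there were 1 in prometaphase NT against M-phase zygotes and 4 in both comparisons with MII oocytes, series matrix values gave 2 in prometaphase NT against fibroblasts and 1 in 4-cell controls against MII oocytes, and only the compared groups gave 1 in both comparisons with MII oocytes. Leaving out 1 sample at a time gave 1 to 2 in anaphase NT against 2-cell controls, in 2-cell, anaphase NT and prometaphase NT embryos against M-phase zygotes and in 4-cell controls against MII oocytes, 1 to 3 in oocyte NT against MII oocytes, 3 to 4 in prometaphase NT against fibroblasts, 0 to 1 in blastomere NT against 4-cell controls, and 0 in 4-cell against 2-cell controls. The cause was not tested. Over all probes, counts in anaphase NT against 2-cell controls ran from 419 (only the compared groups) to 6386 (without anaphase NT 19), against 4977 in the report, in anaphase against prometaphase NT from 974 to 7251, against 5602, and in oocyte NT against 4-cell controls from 163 to 2621, against 1521. They fell to 0 with only the compared groups in M-phase against interphase zygotes (532 in the report, 1240 without interphase zygote 1) and in prometaphase NT against 2-cell controls (345), with 75th percentile scaling in cleavage-inhibited embryos (50, 234 without embryo 20) and with slide as a block in blastomere against oocyte NT (1233). Slide as a block gave 3251 in fibroblasts against 2-cell controls (7124), 2858 and 3056 in anaphase and prometaphase NT against fibroblasts (7875 and 6715), 3493 in anaphase NT against M-phase zygotes (5788) and 22 in blastomere NT against 4-cell controls (332). Series matrix values gave 4221 in oocyte NT and 4318 in 4-cell controls against MII oocytes (7419 and 7548), and 4-cell against 2-cell controls had 725 without 4-cell control 2 (2897). Slide could not be fitted as a block for 4-cell against 2-cell controls. Groups of 2 or 3 samples limit every value.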
